A study of Mus musculus with 3 samples.

Results

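The comparison described here sets embryos that lost Wls in the Mesp1-Cre lineage against controls at embryonic day E8.0. Its cells were chosen by the stage given for each cell in the deposited per-cell table, which put 3202 of the 14777 cells of the series at E8.0. These cells fell into 6 of the 22 barcode samples, 3 of each genotype, and all came from 1 sequencing run. Control embryos carried Mesp1-Cre, the Ai9 red fluorescent reporter and 1 floxed Wls allele (Mesp1-Cre; Ai9; Wls fl/+). Mutant embryos carried the same Cre and reporter with both Wls alleles floxed (Mesp1-Cre; Ai9; Wls fl/fl). The strain background of all was C57BL/6, every control also carried the Cre and a floxed allele, and recombination could occur only in cells that had switched on Mesp1-Cre and in their descendants. Dissociated cells were tagged with MULTI-seq barcodes, which mark the sample a cell came from, sorted for the red reporter and captured on the 10x Chromium v3 platform. Nothing in the labels says whether a barcode held a single embryo, so the p-values below measure the spread between barcode samples, which may be partly technical.

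Wls, also known as Wntless, is a membrane protein that carries lipid-modified Wnt proteins from the Golgi to the cell surface. A cell without it still makes Wnt transcripts and still has Wnt receptors, but it cannot release the ligands. Mesp1 marks the nascent mesoderm that gives rise to the heart, cranial mesoderm, vessels and part of the blood. At about this stage the early heart fields differentiate into beating muscle while the neighbouring second heart field keeps adding progenitors, and Wnt signalling is known for its stage-dependent effects on that step.

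The 3 controls held 367, 614 and 568 cells and the 3 mutants 392, 701 and 560 cells. A sample summed to between 10849505 and 18034568 unique molecular identifiers (UMIs), and a cell had a median of 26837.5 UMIs and 5710.5 detected genes. No cell barcode sequence was shared between the 6 samples, and 11 were also found in other runs. Each cell was called male or female from Xist and 4 Y-linked genes. Male cells made up 99.1%, 98.3% and 98.9% of the called cells in mutants 1, 2 and 3, and 2.34% and 2.16% in controls 1 and 2. Sex and genotype therefore cannot be told apart in these samples. In the sample labelled control 3 the share was 53.1%, with 214 female and 242 male cells, so that this barcode held cells of both sexes in near equal number. Cells with UMIs of both Xist and a Y-linked gene (77, 106 and 88 cells in the controls and 45, 82 and 55 in the mutants) and cells with neither (21 to 49 a sample) were given no sex and are not in these shares. The genes called over all cells are also given without control 3, as are the other genes and gene lists where the text says so.

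Wls transcripts fell in the mutants, by an amount that differed between classes of cells. Wls lies on chromosome 3 (159839672 to 159938664, plus strand, GRCm38), where the small RNA gene Gm23941 is annotated on the other strand. Its level was 65.4, 55.1 and 54.1 CPM in controls 1, 2 and 3 (CPM, UMIs scaled to the same total in each sample) and 14.2, 13.9 and 7.25 CPM in mutants 1, 2 and 3. The groups did not overlap, and the lowest control stood well above the highest mutant. The means were 58.2 ± 6.25 CPM in controls and 11.8 ± 3.93 CPM in mutants (SD, n = 3 each), a log2 fold change of −2.38 (SE 0.24; adjusted p = 0.0475, edgeR's quasi-likelihood test with Benjamini-Hochberg adjustment). Without control 3 the log2 fold change was −2.46 and the edgeR adjusted p 0.0584. Wls also missed the threshold without control 1 (edgeR adjusted p = 0.196), control 2 (0.126), mutant 1 (0.173) or mutant 2 (0.155) and passed without mutant 3 (0.00934), with log2 fold changes from −2.54 to −2.12. It was not called with X and Y genes left out, where only Rpl34 and Rpl34-ps1 passed. Without blood-like and endothelial-like cells (classes defined below) it was not called either (log2 fold change −2.47; edgeR adjusted p = 0.0525). With the share of male cells as a covariate the log2 fold change was −1.99 (edgeR adjusted p = 0.999). That share was 2.34%, 2.16% and 53.1% in the controls and 98.3% to 99.1% in the mutants. Only control 3 sets it apart from genotype, so here and below this covariate cannot tell sex from genotype. DESeq2 and limma called Wls as well (adjusted p = 8.17e-23 and 0.0171).

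At the level of single cells, at least 1 Wls UMI was found in 67.6%, 60.6% and 46.1% of the cells of the controls and in 13.8%, 10.6% and 11.3% of those of the mutants. When each cell was thinned to 5000 UMIs, these shares were 25.9%, 22.3% and 19.5% in the controls and 6.89%, 3.42% and 3.75% in the mutants. Blood-like cells had the lowest level of Wls of any class. At median depths of 32530 UMIs in controls and 34700 in mutants, 25.7% and 3.88% of blood-like cells held a Wls UMI. Among mutant endothelial-like cells 3.36% held one, at a lower median depth of 26550 UMIs. In CPM the order was the reverse, with 2.2 in mutant endothelial-like and 1.1 in mutant blood-like cells, from 9 and 5 UMIs. Whether these few UMIs are background was not tested. In mutants the share holding a Wls UMI was 5.71% in posterior heart field-like cells and 11.5% in the cluster led by Mab21l2 and Sfrp5. It was 25% in the cluster led by Cdx4 and Cdx2 and 68% in presomitic-like cells, a mesodermal class by its markers.

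Cells were clustered and named from marker genes, and a class written as "-like" carries the markers of that cell type (the naming rule is given with the processing). In second heart field-like cells, pooled over samples, Wls stood at 89.9 CPM in controls and 4.06 CPM in mutants. In cranial mesoderm-like cells it was 94.4 CPM against 5.57 CPM. Cardiomyocyte-like cells had 46.6 CPM in controls and 3.22 CPM in mutants, and posterior heart field-like cells 51.9 CPM against 2.55 CPM. In neural-like cells the pooled level was 108.5 CPM in controls and 118.8 CPM in mutants, from 85 and 93 UMIs. The mutant level rested on mutant 2, where 6 cells called male alone gave 40 of the UMIs (258 CPM), while the male cells of mutants 1 and 3 stood at 83.0 and 50.5 CPM. These cells carry Sox2, Sox1 and Pax6 and are not mesoderm by their markers.

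The Wls transcripts that remained in mutants were concentrated in few cells. Of the 509 Wls UMIs counted in mutant cells, 365 (71.7%) lay in 5 classes that held 189 mutant cells (11.4% of them). These were the neural-like, presomitic-like and extraembryonic endoderm-like cells, the cluster led by Epcam and Cldn6, and the cluster led by Cdx4 and Cdx2, a set chosen after its values were seen. Taken as 1 pool, these 5 classes held Wls at 68.4 CPM in mutants, against 103 CPM in controls. The remaining classes together held it at 3.8 CPM in mutants, against 52 CPM in controls.

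**Figure D1:**
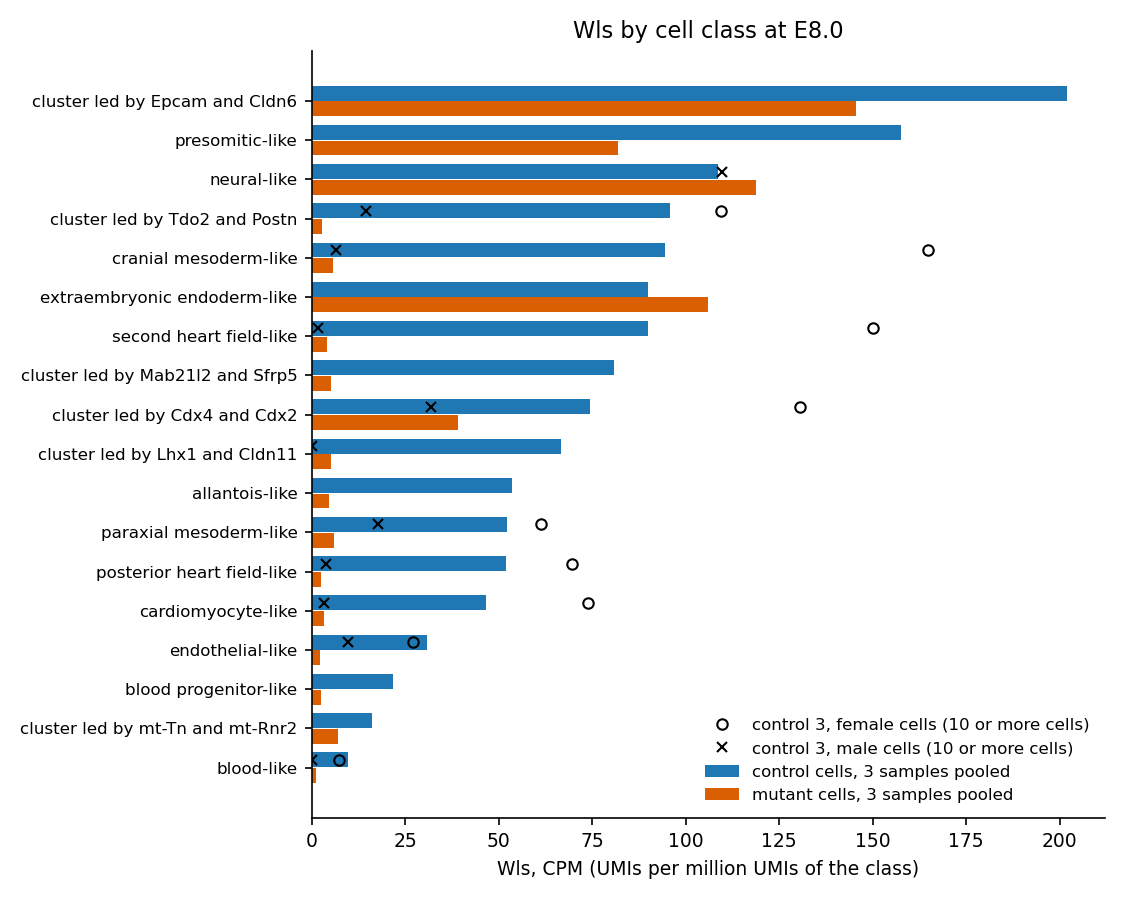
Wls level (x axis, CPM within the class) in each cell class at E8.0 (y axis). Bars pool the 3 control or 3 mutant samples, and open circles and crosses show female and male cells of control 3 where there were 10 or more. Mutant bars are longest in the Epcam, neural-like, extraembryonic endoderm-like and presomitic-like classes, at 81.9 CPM or more. The extraembryonic endoderm-like mutant bar rests on 11 UMIs from 2 cells, both of mutant 2. The mutant bar of the Cdx4 and Cdx2 cluster reaches 39.1 CPM.

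Within the sample labelled control 3, Wls differed between female and male cells. The 214 female cells had 90.4 CPM (exact Poisson 95% interval 83.1 to 98.2) and 74.3% of them held a UMI (67.9% to 80.0%, exact binomial). The 242 male cells had 20.5 CPM (17.2 to 24.2) and 16.1% of them held a UMI (11.7% to 21.4%). These intervals cover counting error only. The male value lies nearer to the mutants than to the other controls. Among second heart field-like cells of this sample, Wls was 150 CPM in 25 female cells and 1.72 CPM in 24 male cells. Among cranial mesoderm-like cells it was 164.9 CPM in 30 female and 6.38 CPM in 28 male cells, and among cardiomyocyte-like cells 73.9 CPM and 3.14 CPM. In neural-like cells the 3 female cells had 206.5 CPM and the 11 male cells 109.7 CPM. The male cells of control 3 therefore went against the control label for Wls, while the female cells did not. With only the female cells of control 3 in the comparison the log2 fold change of Wls was −2.64 (edgeR adjusted p = 0.0147). With male cells only, mutants against control 3, it was −0.78, given without a p-value because that control arm is 1 sample. Those 242 male cells of control 3 held 134 Wls UMIs. Of these, 39 lay in neural-like, 21 in presomitic-like and 16 in extraembryonic endoderm-like cells. The cluster led by Cdx4 and Cdx2 held 23 and that led by Epcam and Cldn6 held 8. The part of class make-up in the value of −0.78 was not tested.

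Across all cells, 4 of 16416 genes tested (0.0244%) passed the adjusted threshold of 0.05 in edgeR, 3 lower and 1 higher in mutants. Besides Wls they were Rpl34, Xist and Rpl34-ps1. DESeq2 called 45 genes (0.274%), 34 higher and 11 lower, and 1615 genes had an unadjusted edgeR p under 0.05. Without control 3 edgeR called 10 of 16749 genes (0.0597%), 8 of them higher in mutants.

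Rpl34, which encodes a protein of the large ribosomal subunit, was lower in mutants by slightly more than 1 log2 unit. It stood at 1298, 1260 and 1245 CPM in controls and 576.6, 599.3 and 577.3 CPM in mutants. At E8.0 the samples of each genotype lay close together and the groups did not overlap. The log2 fold change was −1.20 (SE 0.06; edgeR adjusted p = 0.000733). Rpl34-ps1, a processed pseudogene of Rpl34 on chromosome 6 (71124610 to 71124963), moved the other way. It stood at 122.5, 125.3 and 118.9 CPM in controls and 229.2, 240.5 and 226.8 CPM in mutants, a log2 fold change of 0.84 (SE 0.07; edgeR adjusted p = 0.0105).

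The coding sequence of Rpl34 and its pseudogene are nearly the same, which is why both are printed here. Of 354 aligned bases 352 are identical (99.4%). Bases 55 to 354, counted from the start codon, are shown 5′ to 3′ from the GENCODE M21 transcripts (GRCm38), with the 2 differing bases in capitals.
Rpl34: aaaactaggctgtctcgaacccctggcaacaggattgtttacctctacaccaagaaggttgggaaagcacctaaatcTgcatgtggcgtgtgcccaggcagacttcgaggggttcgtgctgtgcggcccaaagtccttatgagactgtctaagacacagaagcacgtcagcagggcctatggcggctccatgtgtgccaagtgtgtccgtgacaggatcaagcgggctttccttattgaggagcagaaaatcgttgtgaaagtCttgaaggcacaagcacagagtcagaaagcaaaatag
Rpl34-ps1: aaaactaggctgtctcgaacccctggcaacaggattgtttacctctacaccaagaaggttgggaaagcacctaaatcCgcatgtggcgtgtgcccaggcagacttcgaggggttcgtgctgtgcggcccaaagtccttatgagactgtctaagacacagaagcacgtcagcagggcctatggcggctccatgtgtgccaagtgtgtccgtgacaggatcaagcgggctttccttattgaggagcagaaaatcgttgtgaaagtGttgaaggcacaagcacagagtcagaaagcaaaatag

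Both differing bases lie in the stretch shown, so over long runs the transcripts are the same. Of the 31-base stretches of the Rpl34 transcript, 58.2% are also found in Rpl34-ps1 and the others are not. Over the shared stretches the split of reads between the genes is uncertain. The levels were therefore also summed over the 16 genes that share any 31-base stretch with Rpl34. The sums were 1423, 1387 and 1365 CPM in controls and 807.7, 842.3 and 806.4 CPM in mutants, so the groups did not overlap for the sum either. The rise of Rpl34-ps1 was smaller, in CPM, than the drop of Rpl34.

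Rpl34 was similar in both sexes of control 3. Within control 3 it stood at 1229 CPM in female and 1265 CPM in male cells, and Rpl34-ps1 at 121.5 and 115.9 CPM. With male cells only, mutants against control 3, the log2 fold change was −1.13 for Rpl34 and 1.00 for Rpl34-ps1, again with 1 control sample and no p-value given. Without control 3 the log2 fold changes were −1.24 for Rpl34 and 0.79 for Rpl34-ps1, and both were called (edgeR adjusted p = 0.000323 and 0.0173). Whichever single sample was left out, Rpl34 passed (edgeR adjusted p of at most 0.023), but in 1 fit over all stages it did not (log2 fold change −1.21, SE 0.37; edgeR adjusted p = 0.769). Rpl34-ps1 missed the threshold without control 1 (edgeR adjusted p = 0.0783), mutant 1 (0.0864), mutant 2 (0.108) or mutant 3 (0.0534), with log2 fold changes from 0.81 to 0.87, and in the fit over all stages (0.84, SE 0.50; edgeR adjusted p = 0.812). With the share of male cells as a covariate neither was called (log2 fold changes −0.99 and 1.08; edgeR adjusted p = 0.279 and 0.471).

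Xist, the long noncoding RNA that coats the inactive X chromosome of female cells, fell in the samples that were male. It stood at 104.7, 125.5 and 66.1 CPM in controls and 7.10, 7.60 and 4.67 CPM in mutants. The log2 fold change was −4.02 (SE 0.30; edgeR adjusted p = 0.0102), and −4.26 without control 3 (edgeR adjusted p = 0.000462). Xist missed the threshold without control 1 (edgeR adjusted p = 0.0783), mutant 1 (0.0864) or mutant 2 (0.0871), in 1 fit over all stages (log2 fold change −4.03; edgeR adjusted p = 0.769) and with the share of male cells as a covariate (log2 fold change −2.56; edgeR adjusted p = 0.481). Xist and its antisense partner Tsix overlap, and the use of strand is not given in the sources used here. The Y-linked genes Ddx3y, Eif2s3y and Kdm5d had log2 fold changes of 2.33, 2.14 and 1.41, none of which passed (edgeR adjusted p = 0.496, 0.5 and 0.496), and control 3 lay between the groups for each. Without control 3 all 3 passed, at 4.60, 4.84 and 1.95 (edgeR adjusted p = 0.000248, 0.000115 and 0.0173).

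Rps3a1, a gene for a protein of the small ribosomal subunit on chromosome 3 (86137940 to 86142702), split the controls. It stood at 1619 CPM in control 1, 63.2 CPM in control 2 and 878.3 CPM in control 3, against 61.1, 59.3 and 61.6 CPM in the mutants. Control 2 lay at the level of the mutants and the other controls far above it, and the gene did not pass (log2 fold change −3.89, SE 0.94; edgeR adjusted p = 0.496). Without control 2 it was called (−4.44; edgeR adjusted p = 0.00427). Within control 3 the level was 1601 CPM in female and 83.4 CPM in male cells. Rps3a3, in which 54.3% of the 31-base stretches of Rps3a1 are found, had 1359, 2670 and 1993 CPM in controls and 2544, 2586 and 2542 CPM in mutants. Summed over the 12 genes that share such stretches, the levels were 3005, 2766 and 2900 CPM in controls and 2639, 2679 and 2635 CPM in mutants. The large split of Rps3a1 was thus mostly balanced by its copies, and the counts of the single copies are uncertain.

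**Figure D2:**
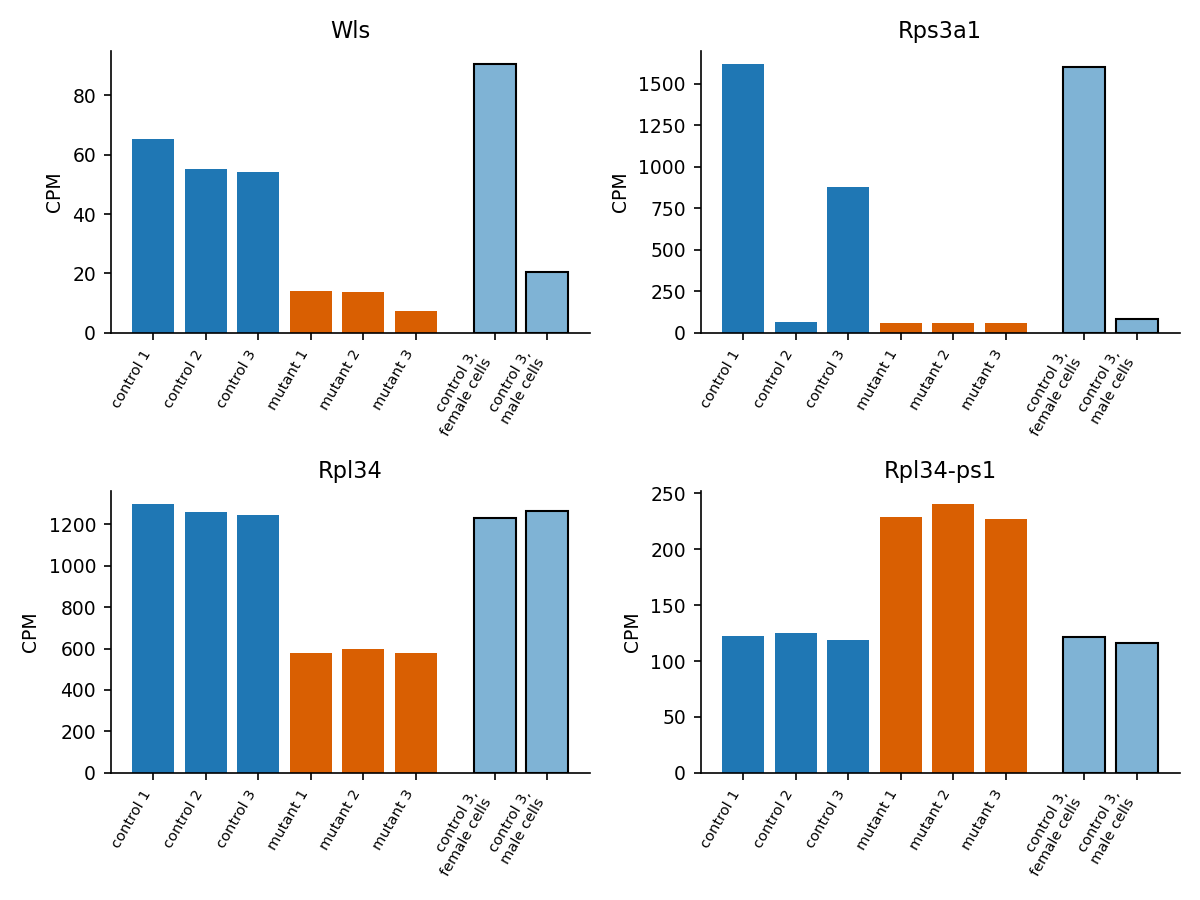
Levels (y axis, CPM) of Wls, Rps3a1, Rpl34 and Rpl34-ps1 in the 3 controls (dark blue), the 3 mutants (orange) and the female and male cells of control 3 taken separately (light blue, outlined). The male cells of control 3 stand low for Wls and Rps3a1 but beside the controls for Rpl34 and Rpl34-ps1.

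The Wnt pathway was described by the role of its genes, as counts and medians beside those of all genes tested, whose median log2 fold change was 0.01. Over 22 pathway lists, 283 genes were tested and Wls alone passed. Of the secretion genes, 12 were tested and their median was −0.02. Porcn, the enzyme that attaches the lipid to Wnt proteins, had 1.80, 2.79 and 3.94 CPM in controls and 3.78, 2.61 and 3.62 CPM in mutants. Vps35, a retromer subunit that recycles Wls from endosomes, had 127.5, 102.4 and 131.6 CPM in controls and 115.9, 122.1 and 121.3 CPM in mutants. Both genes overlapped between the groups. The cargo receptor Tmed5 had a log2 fold change of −0.24 and the retromer-linked Snx3 one of −0.13 (SE 0.14 and 0.07), neither of which passed.

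Of 19 Wnt ligand genes, 9 had enough UMIs to be tested. None passed, 8 of the 9 had a higher fitted level in mutants, and their median log2 fold change was 0.36. Without blood-like and endothelial-like cells this median was 0.22, and it was 0.21 without control 2. Wnt2 had 44.4, 61.3 and 64.4 CPM in controls and 70.7, 85.2 and 83.2 CPM in mutants. The groups did not overlap, with a log2 fold change of 0.41 (SE 0.13, or 0.48 without control 3; edgeR adjusted p = 0.496). Such separation was frequent, since 2049 genes (12.5% of those tested) had all mutants above all controls and 602 (3.67%) all mutants below. Separation was read from CPM, while log2 fold changes also use edgeR's scaling between samples (TMM). By fitted level, 8619 genes were higher and 7797 lower in mutants. Wnt11, a ligand known for its part in heart formation, had 3.06, 3.84 and 4.19 CPM in controls and 5.62, 5.49 and 5.37 CPM in mutants, also without overlap (log2 fold change 0.48, SE 0.16). Wnt5a, a mostly noncanonical ligand, had 51.5, 32.1 and 64.0 CPM in controls and 57.7, 50.4 and 60.8 CPM in mutants, and these groups overlapped.

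Receptors and the cytoplasmic machinery lay near the median of all genes. The 16 genes for Frizzled receptors and their co-receptors had a median log2 fold change of 0.06, and in none did the groups separate. Fzd2 had 118.3, 160.4 and 180.3 CPM in controls and 163.8, 163.0 and 191.1 CPM in mutants. Lrp6, a co-receptor of the beta-catenin pathway, had 35.2, 34.5 and 46.1 CPM in controls and 44.9, 39.2 and 43.1 CPM in mutants. The 18 genes of the beta-catenin machinery had a median of 0.09. Ctnnb1, which encodes beta-catenin, had 25, 24.6 and 29.3 CPM in controls and 31.2, 26.9 and 30.2 CPM in mutants. Secreted antagonists and R-spondins (14 tested) had a median of 0.09. Among them Sfrp1, a secreted Wnt-binding protein, had a log2 fold change of 0.47 (SE 0.22), and Rspo3, which strengthens Wnt reception, one of 0.60 (SE 0.25). The 9 planar polarity genes tested had a median of 0.07, with Vangl2 at 0.17. When single samples were left out, these medians ranged from 0.02 to 0.18 for receptors, 0.05 to 0.15 for the machinery, −0.0067 to 0.25 for antagonists and R-spondins and −0.0076 to 0.16 for planar polarity.

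Genes known as transcriptional targets of beta-catenin signalling mostly had higher values in mutants. Of 18 targets tested, 16 had a higher fitted level in mutants, none passed, and the median was 0.21, or 0.05 without blood-like and endothelial-like cells. Axin2, the feedback inhibitor most often used to read the pathway, had 23.4, 19.8 and 24.5 CPM in controls and 30.9, 23.2 and 29.8 CPM in mutants. Those groups overlapped at mutant 2, and the log2 fold change was 0.23 (SE 0.13, or 0.26 without control 3; edgeR adjusted p = 0.565). Lef1, which encodes a DNA-binding partner of beta-catenin, had 44.1, 38.8 and 54.4 CPM in controls and 53.4, 43.6 and 65.7 CPM in mutants. Nkd1, a feedback gene, had 34.9, 40.8 and 39.9 CPM in controls and 45.8, 44.4 and 50 CPM in mutants, without overlap (log2 fold change 0.20, SE 0.08). Apcdd1, a membrane inhibitor, had a log2 fold change of 0.39 (SE 0.13) and likewise no overlap. Cdx4 and Cdx2 had wide spreads within the controls, from 2.38 to 23.7 CPM and from 6.34 to 47.1 CPM. Within second heart field-like cells the median of the 11 targets tested was 0.14, within cardiomyocyte-like cells −0.23 (7 tested) and within posterior heart field-like cells −0.38 (9 tested). None passed within these classes.

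Of the 22 pathway lists, genes of the contractile apparatus had the median farthest from that of all genes. All 16 cardiomyocyte genes tested had a higher fitted level in mutants, in 14 of them every mutant lay above every control, and the median log2 fold change was 0.76. None passed in edgeR, where 15 had an unadjusted p under 0.05, as did 9.84% of all genes tested. DESeq2 called 9 of the 16, against 0.274% of all genes, and 12.5% of all genes had every mutant above every control. Earlier results of these data had already shown higher heart muscle genes in mutants of the series, so the list is no independent evidence of direction. Myl7, the atrial myosin light chain that marks early heart muscle, had 618.9, 759.7 and 969.3 CPM in controls and 1382, 1299 and 1380 CPM in mutants. The controls differed among themselves, control 3 being the highest of them, and all lay below the mutants. The log2 fold change was 0.72 (SE 0.12; edgeR adjusted p = 0.496; DESeq2 adjusted p = 3.2e-05). Without control 3 it was 0.86 and passed in edgeR (adjusted p = 0.0472), the only gene of the list to do so.

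Actc1, cardiac actin, had 318.5, 548.9 and 565.7 CPM in controls and 879.2, 1063 and 956 CPM in mutants (log2 fold change 0.94, SE 0.19, or 1.04 without control 3; DESeq2 adjusted p = 7.35e-05). Myh6, a cardiac myosin heavy chain, had 32.9, 42.2 and 52.1 CPM in controls and 85.2, 70.1 and 110.5 CPM in mutants (log2 fold change 0.98, SE 0.19). Tnnc1, cardiac troponin C, had 120, 121.9 and 172.3 CPM in controls and 260.7, 212.3 and 232 CPM in mutants (log2 fold change 0.69, SE 0.13), in a region where the gene Nisch overlaps it on the other strand. Tpm1, which encodes tropomyosin, was the least separated of those without overlap, with 1157 CPM in control 3 and 1205 CPM in mutant 2. Nppa and Nppb, which encode the natriuretic peptides of working heart muscle, overlapped between the groups. Nppa had 0.54, 2.79 and 0.94 CPM in controls and 0.74, 8.71 and 5.23 CPM in mutants.

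**Figure D3:**
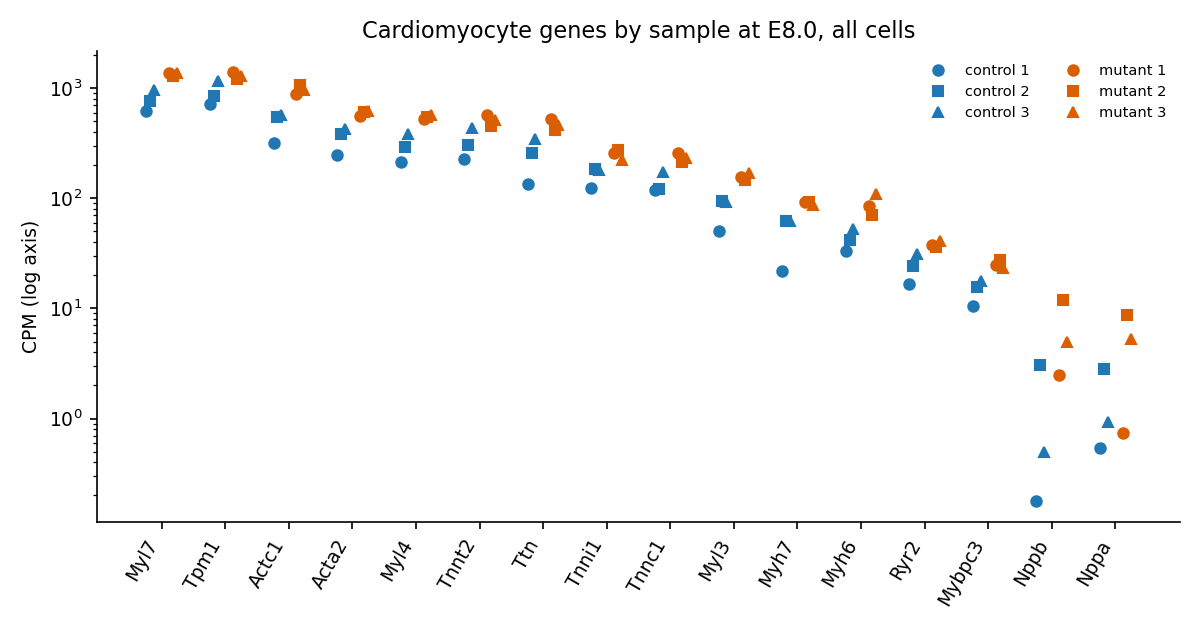
Levels (y axis, CPM on a log axis) of the 16 cardiomyocyte genes (x axis) in all cells of each control (blue) and mutant (orange) sample. Mutant points lie above control points for 14 genes, and Nppb and Nppa are the 2 in which the groups overlap.

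Higher muscle transcripts in a whole sample can come from more muscle cells or from more transcript per cell, and both were measured. The share of cardiomyocyte-like cells was 4.90%, 4.40% and 9.68% in controls and 11.7%, 8.42% and 7.68% in mutants. These overlapped at control 3 (two-sided exact permutation p = 0.3, where 0.1 is the smallest that 3 against 3 can give). Within cardiomyocyte-like cells, in 2 control and 3 mutant samples, the median log2 fold change of the 16 genes was 0.14 and none passed, with 15 of 16 higher in fitted level. Within second heart field-like cells, 12 of the genes were tested, all 12 had a lower fitted level in mutants, and the median was −0.76 without any passing. The first heart field list had a median of −0.82 there over 9 genes. That comparison rests on 2 controls, since control 1 had too few such cells.

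Blood markers differed the other way by value. The 7 blood markers all had a lower fitted level in mutants (median −1.03, none passed), with summed levels from 5273 to 38930 CPM in controls and from 5144 to 17450 CPM in mutants, and none of the 7 was at 0. Leaving out blood-like, blood progenitor-like and endothelial-like cells lowered the cardiomyocyte median from 0.76 to 0.63. Here and wherever such cells were left out, the cluster led by mt-Tn and mt-Rnr2 (32 control and 15 mutant cells) was kept. All 7 blood markers were raised in that cluster. In male cells only, mutants against control 3, the log2 fold change of Myl7 was 0.19 and that of Tnnc1 0.21, with 1 control sample and no p-value given. With the share of male cells as a covariate they were 0.10 and 0.04 (edgeR adjusted p = 0.999 each). That share nearly follows genotype, and the male cells of control 3 were also low in Wls. Neither fit can therefore tell sex from genotype. Within control 3 Myl7 stood at 993.8 CPM in female and 1206 CPM in male cells, and Actc1 at 511.4 and 765.4 CPM. The part of sex in the muscle result was not tested, as no mutant sample was female. Mutants 1, 2 and 3 held only 3, 10 and 5 cells called female.

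Genes that specify the heart fields were described by field. The 10 first heart field genes had a median log2 fold change of 0.21, which was 0.04 without control 2 and 0.39 without control 3. Hcn4, the pacemaker channel that marks that field, had 3.33, 6.11 and 6.19 CPM in controls and 9.22, 10.5 and 9.20 CPM in mutants, without overlap (log2 fold change 0.80, SE 0.22, or 0.89 without control 3; edgeR adjusted p = 0.496). Tbx5, a transcription factor of the same field, had 13.2, 17.6 and 19.1 CPM in controls and 20.9, 23.2 and 24.4 CPM in mutants (0.37, SE 0.13). The 12 genes of the anterior second heart field had a median of 0.15 and the 12 of the posterior second heart field 0.12. Without blood-like and endothelial-like cells those medians were −0.04 and −0.0015. Leaving out single samples gave 0.07 (without control 1) to 0.24 (without control 3) for the anterior list and −0.10 (without control 1) to 0.24 (without mutant 1) for the posterior list. Mef2c had 74.1, 73.0 and 162.1 CPM in controls and 151.7, 127.3 and 126.6 CPM in mutants, so that control 3 lay above all mutants. Aldh1a2, which makes retinoic acid, had a log2 fold change of −0.33 (SE 0.14; edgeR adjusted p = 0.505).

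The autosomal genes with the smallest p that met the rule for naming (a mean of at least 5 CPM, groups without overlap and a log2 fold change of at least 0.5) included 9 higher ones besides Rpl34-ps1. They were Apobec2, Pgam2, Myl9, Fhl2, Myl7, Tnnc1, Myh6, Cavin3 and Nptx2, with log2 fold changes from 0.59 for Fhl2 to 1.09 for Nptx2, and Myl7, Tnnc1 and Myh6 are also on the cardiomyocyte list. Each had an edgeR adjusted p of 0.496, and DESeq2 called all 9. With the share of male cells as a covariate the values were 1.12 for Apobec2, 0.36 for Pgam2, 0.63 for Myl9, 0.78 for Fhl2, 0.39 for Myh6, 0.24 for Cavin3 and 0.33 for Nptx2 (edgeR adjusted p = 0.999 each). With male cells only, and 1 control sample, these 7 lay between 0.18 for Myh6 and 0.72 for Apobec2, with no p-value given. Pgam2, the muscle phosphoglycerate mutase, had 21.6, 21.2 and 27.4 CPM in controls and 47.9, 40.0 and 39.2 CPM in mutants. Myl9, a smooth muscle myosin light chain, had 42.5, 67.0 and 68.0 CPM in controls and 113, 128.5 and 121.5 CPM in mutants. Fhl2, a LIM protein of heart muscle, had 17.5, 21.6 and 19.3 CPM in controls and 30.1, 30.7 and 32.3 CPM in mutants.

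Among the lower genes named by the same rule, besides Wls and Rpl34, were Bid, Phgdh, Rps3a1, Rab10os, Slc7a5, Snhg3, Mocs3 and Ifrd2, again with edgeR adjusted p of 0.496. DESeq2 called Bid and Phgdh. Phgdh, which starts serine synthesis and lies on chromosome 3, had 131.5, 87.4 and 115.2 CPM in controls and 74.0, 82.3 and 75.3 CPM in mutants (log2 fold change −0.61, SE 0.14). Bid, a member of the BCL2 family that promotes apoptosis, had 22.7, 18.4 and 16.8 CPM in controls and 13.4, 12.3 and 11.3 CPM in mutants. Its log2 fold change was −0.73 in all cells, −0.15 without blood-like and endothelial-like cells and −0.13 with the share of male cells as a covariate. Without blood-like and endothelial-like cells Ifrd2 went from −0.53 to −0.21, Rab10os from −0.59 to −0.29, Snhg3 from −0.53 to −0.36 and Phgdh from −0.61 to −0.45. Rps3a1 (−3.89 to −3.795), Slc7a5 (−0.86 to −0.84) and Mocs3 (−0.50 to −0.46) changed less. Slc7a5, a large neutral amino acid transporter, had 4.50, 7.5 and 7.25 CPM in controls and 3.96, 3.27 and 4.11 CPM in mutants. Rab10os lies antisense to Rab10, and since the use of strand is not given, reads of Rab10 may be counted to it where the genes overlap.

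Of 15 cell cycle genes, 14 had a lower fitted level, in 5 every mutant lay below every control (3.67% of all genes did), and the median log2 fold change was −0.18 with none passing. Ccne1, the G1 to S cyclin, had 147.5, 153.3 and 139.9 CPM in controls and 133.1, 116.8 and 114 CPM in mutants (−0.36, SE 0.09). Ccna2, an S and G2 cyclin, had 196.5, 175 and 177.6 CPM in controls and 159.9, 159.1 and 159.3 CPM in mutants (−0.28, SE 0.07). Top2a was the exception, with all mutants above all controls (log2 fold change 0.04). Within the 10 classes tested, the medians of this list were closer to 0, from −0.14 in endothelial-like cells to 0.04, and none of its genes passed. They were above 0 only in blood-like cells and in the cluster led by Lhx1 and Cldn11, at 0.04 in both. The part of cell make-up in the median over all cells was not tested. Cdkn1c, an imprinted inhibitor of cyclin-dependent kinases, had 493.8, 361.3 and 499.2 CPM in controls and 723.5, 1020 and 702.4 CPM in mutants. It separated the groups (log2 fold change 0.78, SE 0.17, or 0.82 without control 3; edgeR adjusted p = 0.496; DESeq2 adjusted p = 0.00111). Cdkn1a, the p53-induced inhibitor, was at 4.05 to 6.93 CPM in 5 samples and 24.5 CPM in mutant 3.

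Hox genes give cells their position along the body axis. Of 22 Hox genes tested 21 had a higher fitted level in mutants, the median was 0.32 (0.14 without mutant 3 and 0.47 without mutant 1) and none passed. The control 2 sample was low in the posterior ones: Hoxa9 had 17.4, 1.16 and 9.32 CPM in controls and 10.3, 20.6 and 23.8 CPM in mutants. Hoxb9, its paralogue, had 12.5, 1.80 and 15.5 CPM in controls and 19.7, 16.4 and 25.4 CPM in mutants. In control 2 no allantois-like cells were found among 614, and 2.44% of the cells were in the cluster led by Cdx4 and Cdx2. Notch pathway genes had a median of 0.31 over 12 genes, which was 0.15 without mutant 3 and 0.21 without control 2. FGF response genes had a median of 0.17 over 11 genes, which rested on single samples (0.06 without control 2 and 0.36 without control 3), and BMP ligands and response genes one of 0.09 over 14 (−0.03 to 0.17 when single samples were left out). Lefty2, an inhibitor of Nodal expressed on the left side, varied from 3.55 to 79.7 CPM between mutants. The lists for retinoic acid, p53 and stress, nascent mesoderm, D cyclins with CDK inhibitors, and Nodal and left-right genes had medians between −0.01 and 0.05, and between −0.23 and 0.20 when single samples were left out.

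**Figure D4:**
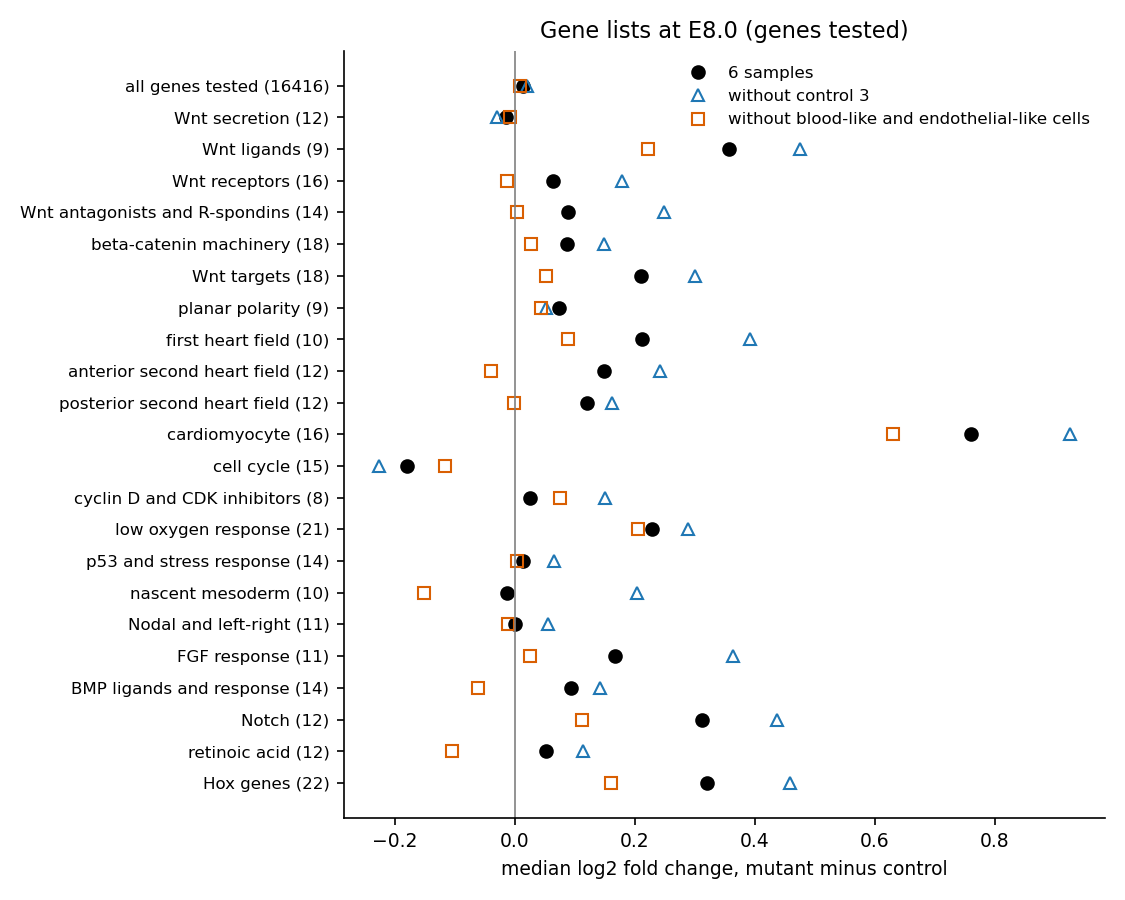
Median log2 fold change, mutant minus control (x axis), over the tested genes of each list (y axis, number of genes in brackets). Circles are the 6 samples, triangles leave out control 3 and squares leave out blood-like and endothelial-like cells. Cardiomyocyte genes lie farthest to the right, at 0.76, 0.93 and 0.63, and cell cycle genes are below 0 in each setting.

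Within cell classes, 10 classes had enough cells for a test in at least 2 samples per genotype. The share of genes called ranged from 0.0317% in blood-like cells (3 genes) and 0.0404% in second heart field-like cells (4 genes) to 0.0708% in the cluster led by Cdx4 and Cdx2 (6 genes). It was 0.0431% in cardiomyocyte-like and also 0.0431% in endothelial-like cells, 0.0422% in paraxial mesoderm-like cells, 0.0473% in posterior heart field-like cells, 0.0512% in cranial mesoderm-like cells, 0.05% in the cluster led by Tdo2 and Postn and 0.057% in the cluster led by Lhx1 and Cldn11. Rpl34 and Xist were called in all 10 classes, and Wls and Rpl34-ps1 in 8 each. Without control 3 Rpl34-ps1 lost its call in blood-like cells (log2 fold change 0.87, against 0.91 with it; edgeR adjusted p = 0.157) and cardiomyocyte-like cells (0.93, against 1.00; edgeR adjusted p = 0.3).

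In the 8 classes where Wls was called its log2 fold change lay between −5 in the cluster led by Tdo2 and Postn and −2.98 in paraxial mesoderm-like cells. In second heart field-like cells it had 111.3 and 75.0 CPM in controls 2 and 3 and 6.29, 3.32 and 2.78 CPM in mutants (log2 fold change −4.50, SE 0.30; edgeR adjusted p = 1.95e-05). In cranial mesoderm-like cells it had 119.1, 76.4 and 93.5 CPM in controls and 10.5, 4.42 and 2.55 CPM in mutants (−4.11, SE 0.31; edgeR adjusted p = 1.86e-05). In posterior heart field-like cells it had 76.5, 52.4 and 38.9 CPM in controls and 1.82, 2.80 and 2.66 CPM in mutants (−4.38, SE 0.43). Without control 3 the call of Wls was lost in cardiomyocyte-like cells (log2 fold change −3.70, against −3.67 with it; edgeR adjusted p = 0.06) and endothelial-like cells (−3.89, against −3.71; edgeR adjusted p = 0.189), each left with 1 control. The classes in which Wls was not called were blood-like cells (log2 fold change −2.89, SE 0.54; edgeR adjusted p = 0.506) and the cluster led by Cdx4 and Cdx2 (−0.91, SE 0.53; edgeR adjusted p = 0.929). In that cluster mutant 2 had 93.1 CPM, as high as control 1 at 98.3 CPM, while mutants 1 and 3 had 20.4 and 16.4 CPM.

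Few other genes were called within a class. Hoxa9 rose in the cluster led by Cdx4 and Cdx2, from 27.4 and 23.8 CPM in controls 1 and 3 to 64.8, 75.6 and 77.5 CPM in mutants (log2 fold change 1.5, SE 0.20; edgeR adjusted p = 0.0144). Without control 3, which leaves 1 control, its log2 fold change was 1.37 and it was not called. Olfr95, an olfactory receptor gene, rose in the same cluster from 24.0 and 21.7 CPM to 53.4, 65.7 and 82.3 CPM (1.57, SE 0.24; edgeR adjusted p = 0.0374). Its log2 fold change without control 3 was 1.47, and it was not called there. Rps3a1 was lower there and in endothelial-like cells, both of which lacked control 2, the low control for that gene. Hmgb1, a chromatin protein, fell in the cluster led by Lhx1 and Cldn11, from 740.3 and 883.8 CPM to 474.3 and 487 CPM (−0.77, SE 0.10; edgeR adjusted p = 0.0121). The antisense gene 1810013D15Rik rose in the cluster led by Tdo2 and Postn, from 41.0 and 35.9 CPM to 121.3 and 138.3 CPM (1.74, SE 0.20; edgeR adjusted p = 0.00171). Gm47882, a long noncoding RNA, fell in cranial mesoderm-like cells, from 29.4, 24.6 and 16.9 CPM to 4.22, 2.46 and 5.09 CPM (−2.62, SE 0.36; edgeR adjusted p = 0.0107).

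Of the 10 distinct genes called within any class, 4 lie on chromosome 3, the chromosome of Wls: Wls itself, Rpl34, Rps3a1 and 1810013D15Rik. Chromosome 3 held 4.95% of the genes tested in all cells. In all cells, 9.72% of the genes on chromosome 3 and 9.84% of the others had an unadjusted edgeR p under 0.05. The gene 1810013D15Rik lies at 157925220 to 157938355, while Rpl34 and Rps3a1 lie at 130726831 to 130730398 and 86137940 to 86142702.

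The make-up of the sorted cells varied widely between samples of 1 genotype. In none of 18 classes did the shares of the 3 mutants lie wholly above or below those of the 3 controls, and the smallest exact permutation p was 0.2 (adjusted p = 0.6 over 18 classes). Blood-like cells made up 24.2%, 28.0% and 7.57% of controls and 10.5%, 10.4% and 2.68% of mutants. Their mean difference was −12.1 percentage points, or −18.3 without control 3. Posterior heart field-like cells made up 9.26%, 7% and 12.9% of controls and 5.36%, 5.99% and 7.5% of mutants. Second heart field-like cells made up 3.81%, 10.4% and 10.6% of controls and 11.0%, 9.56% and 7.5% of mutants. Allantois-like cells ranged from 0 of 614 cells in control 2, which allows a share of up to 0.489%, to 10.9% in control 1.

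**Figure D5:**
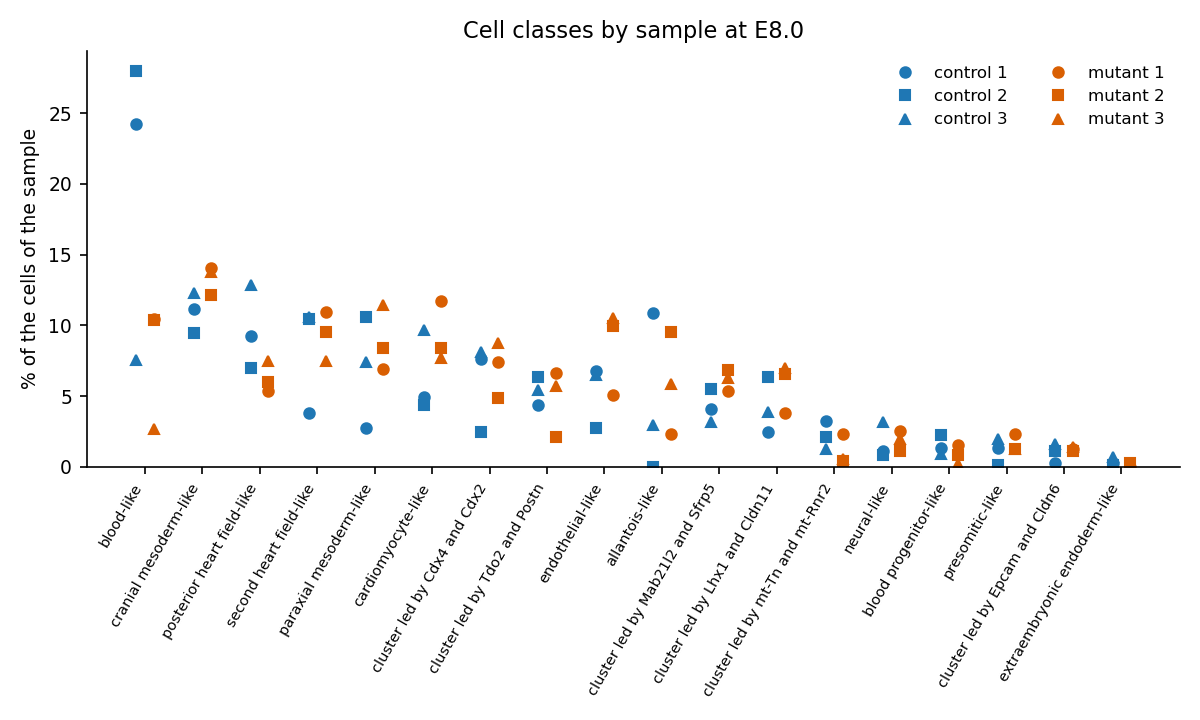
Share of each cell class (x axis) among the cells of a sample (y axis, %), with 1 point per control (blue) or mutant (orange) sample. The groups overlap in each of the 18 classes, and control 3 is apart from controls 1 and 2 in blood-like cells.

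The genotype effect at E8.0 was also compared with that at E9.5, where 6 control and 6 mutant samples (8518 cells) were available. At E9.5 edgeR called 2438 of 17872 genes (13.6%). The difference of the genotype effect between the stages, tested as an interaction term, was called for 83 genes (0.464%). Genes that respond to low oxygen made up a part of these. Of 21 such genes none passed at E8.0, where their median log2 fold change was 0.23 (0.13 without control 1 and 0.11 without mutant 3), while all 21 were called higher at E9.5 with a median of 2.31. For 19 of the 21 the difference between stages itself passed. This list was also chosen with earlier results of these data known, so its counts are no independent evidence. Krt19, a keratin of that list, had 8.54, 11.1 and 15.4 CPM in controls and 19.0, 19.7 and 22.7 CPM in mutants at E8.0, without overlap (log2 fold change 0.73, SE 0.18; edgeR adjusted p = 0.496). P4ha1, a prolyl hydroxylase of collagen synthesis, had 50.6, 54.2 and 62.2 CPM in controls and 62.3, 77.1 and 79.5 CPM in mutants at E8.0. Ldha and Pgk1, enzymes of glycolysis, overlapped between the groups at E8.0, with log2 fold changes of −0.09 and 0.09. For Wls the effect at E9.5 was −2.07 and the difference from E8.0 was 0.31 (SE 0.24; edgeR adjusted p = 0.669). Rpl34 varied widely within each genotype at E9.5, with 834.9 ± 465.6 CPM in controls and 1303 ± 622.8 CPM in mutants (SD, n = 6 each). Its fitted effect there was 0.64 (edgeR adjusted p = 0.143), and the difference from E8.0 did not pass (1.84, SE 0.48; edgeR adjusted p = 0.112).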

How the data were processed

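The authors deposited raw UMI counts (51923 genes by 14777 cells, not normalized) and a per-cell table of other values (stage, genotype, barcode, run). The submitters' processing notes name kallisto, bustools 0.46.1, Cell Ranger and GRCm38. Cell filters and strand use are not given in the sources used here. Counts were summed per barcode sample. The main test was edgeR's quasi-likelihood test (version 4.0.16, R 4.3.3, filterByExpr and TMM scaling, two-sided, Benjamini-Hochberg threshold 0.05). It was also run on counts simulated from the means and dispersions of these samples. Those counts were drawn without differences in sex or cell make-up, so that run cannot speak to either. DESeq2 1.42.0 and limma 3.58.1 were alternatives. CPM, class shares and folds were computed from the counts. Clustering used scanpy 1.11.5, leidenalg 0.10.2 and Python 3.11.15, with 2000 variable genes, 30 components, 20 neighbours and resolution 1. A cluster took a class name when over 50% of its markers (3 or more) had a log2 rise of at least 1, at least 1 marker and no fewer than of any other class stood among the 10 leading genes, no other class had as large a share of markers raised, and the cluster's median depth was not low. These naming limits were chosen with the data in view, and 6 of 22 clusters stayed unnamed. Scrublet called 13 cells (0.406%), too few to be relied on, and they were kept. A class was tested in samples with at least 20 of its cells. Genes were named when they passed, as the 10 autosomal genes with the smallest p in each direction under the limits in the text, as sex genes, or as up to 4 per list. Porcn, Vps35, Lrp6, Ctnnb1, Axin2, Cdx4, Cdx2, Actc1, Nppa, Nppb and Hoxb9 fall outside that rule and were chosen after their values were seen. All 51923 gene symbols were matched to GENCODE M21. Members, lists and rules were chosen with earlier results of these data known. Replicate numbers only name samples and pair none.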

Additional observations from a re-analysis of the deposited data

Results flagged for a closer look

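For 3 low-oxygen genes named above, the genotype effect at E9.5 differed from that at E8.0 by the interaction test in edgeR. Their list was chosen with earlier results of these data known. The difference, E9.5 minus E8.0 on the log2 scale, was 0.92 for Pgk1 (adjusted p = 0.0194), 1.69 for Krt19 (adjusted p = 0.0146) and 1.25 for P4ha1 (adjusted p = 0.0252). At E9.5 Krt19 stood at 16.8 ± 5.61 CPM in controls and 102.6 ± 31.3 CPM in mutants (SD, n = 6 each), P4ha1 at 53.6 ± 7.85 and 167 ± 41.8 CPM, and Pgk1 at 902.6 ± 243 and 1712 ± 268.5 CPM. The stages share no samples, and all 6 E8.0 samples came from 1 run, while those at E9.5 came from 3 runs including that one. The part of the run in these differences was not tested. At E8.0 sex followed genotype, while at E9.5 Xist stood at 81.7 ± 66.1 CPM in controls and 82.6 ± 84.8 CPM in mutants. The part of sex was not tested either.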

How the results depend on the processing

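No paired analysis was possible because the labels give the E8.0 samples no replicate numbers that pair a control with a mutant. The cause of each change below was not tested. Over all cells 4 genes were called, against 45 with DESeq2, 35 with no filter on low counts, 1 with all stages in one fit, 0 in edgeR with the share of male cells as a covariate (552 at an unadjusted p under 0.05), 2 without X and Y genes, 10 with only female cells of control 3, 8 with only male cells, where the control arm is 1 sample, and 1 to 10 when single samples were left out. The named genes that changed direction did so with the male share as covariate (log2 fold change 0.11 for Rab10os, 0.0069 for Mocs3, 0.27 for Ifrd2, −2.20 for Ddx3y, −2.90 for Eif2s3y and −0.34 for Kdm5d) or with male cells only (0.00093 for Ifrd2, −0.011 for Ddx3y and −0.24 for Eif2s3y).

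Within classes the 43 calls became 807 without the filter and 162 with only female cells of control 3. In the order blood-like, cardiomyocyte-like, Cdx4 and Cdx2, Lhx1 and Cldn11, Tdo2 and Postn, cranial, endothelial-like, paraxial, posterior and second heart field-like, the counts without the filter were 74, 46, 97, 73, 36, 145, 139, 57, 77 and 63. With only female cells of control 3 they were 7, 7, 16, 53, 32, 11, 10, 10, 7 and 9. DESeq2 gave 5 in blood-like, 8 in cranial and 10 in endothelial-like cells. Leaving out single samples gave 0 to 52, 1 to 6, 5 to 16, 51 to 70, 21 to 35, 7 to 17, 3 to 10, 5 to 10, 4 to 9 and 5 to 11, where a lone sample in an arm is assumed to vary like the others.

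Classes whose shares did not overlap numbered 0, against 2 at resolution 0.5, 1 with only female cells of control 3 and 0 to 5 when single samples were left out. Cells with a Wls UMI differed in share by −17.9 percentage points at 5000 UMIs per cell, −46.2 unthinned, −9.60 at 2500 UMIs and −19.4 to −16.2 when single samples were left out. The 83 genes that differed between stages numbered 29 to 141 when single samples were left out; they were 54, 29, 39 and 42 without E8.0 control 2 and E8.0 mutants 1, 2 and 3, and 48, 47 and 141 without E9.5 controls 5 and 6 and E9.5 mutant 5. The 1 called list gene, Wls, became 0 without blood-like and endothelial-like cells (log2 fold change −2.47, against −2.38; edgeR adjusted p = 0.0525) and 0 to 1 when single samples were left out.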
